A study of Mus musculus with 4 samples.

Results

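CCl4-injured, fibrotic mouse liver was compared with healthy liver over whole tissue sections, using 3 of the 4 sections of the series: 2 fibrotic sections and 1 healthy section. Members were chosen by the labels alone, and all unique molecular identifiers (UMIs, each counting 1 captured transcript) over all spots of a section were summed. The fibrotic mice were HK2fl/fl animals injected into the peritoneum with carbon tetrachloride (CCl4) at 1 µL/g of body weight, 2 times a week, for 6 weeks according to the series' design and for 4 or 6 weeks according to the sample protocol. The healthy mouse was an HK2fl/fl animal given olive oil. The remaining section came from a CCl4-treated PDGFRBcreERT2/Hk2fl/fl mouse, in which Cre driven by the Pdgfrb promoter removes Hk2 in stellate cells. It entered the statistical fit, and its levels are given only where a result turns on them. All mice were labelled male and 5 months old, and all received tamoxifen at 75 mg/kg on 5 days with a wait of 2 weeks, the floxed animals without Cre included. Each section came from 1 mouse. With 1 healthy animal, a gene was called higher or lower only if its adjusted p was under 0.05 and both fibrotic sections lay on the same side of the healthy section. The p-values rest on 1 residual degree of freedom between the fibrotic sections, moderated across genes, and assume that the healthy section varies like them.

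The fibrotic sections held 4134 spots and 67479047 UMIs (replicate 1) and 2577 spots and 40585039 UMIs (replicate 2), and the healthy section held 3064 spots and 54031683 UMIs. Median UMIs per spot were 15223.5 and 13665 for the fibrotic mice and 15588 for the healthy mouse. All 9 hepatocyte markers were detected in every section, and 8 markers of pancreas, kidney, fat and muscle in the matrices summed to at most 0.201 CPM (UMIs scaled to library size with TMM factors) in fibrotic and 0.133 CPM in healthy liver, with the insulin gene Ins2 at 0 in every section. Fibrotic replicate 1 stood apart in its Y-linked transcripts, against its male label. Eif2s3y was at 0.515 and 63.3 CPM in fibrotic replicates 1 and 2, against 83.9 CPM in the healthy section. Ddx3y was at 0.369 and 51.3 CPM in those fibrotic sections, against 62.9 CPM in the healthy one. Kdm5d and Uty were likewise at 0.066 and 0.145 CPM in replicate 1, against 14.8 and 21.1 CPM in replicate 2 and 19.97 and 21.97 CPM in healthy liver. None of these 4 genes was called by the main edgeR fit or DESeq2 or had an unadjusted p under 0.05 in the main fit. With edgeR, 3 were called lower with total-UMI scaling and 4 with no filter on low counts. The limma fit with equal weight per spot called 3 lower. Counts of calls are therefore also given with fibrotic replicate 1 replaced by the Hk2-deleted section, a comparison that also carries the other genotype. The share of spots with, or next to a spot with, a UMI of the mesothelial genes Msln or Upk3b was 33.3% and 2.29% in fibrotic liver and 12.8% in healthy liver.

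CCl4 is a hepatotoxin that cytochrome P450 enzymes of hepatocytes turn into a reactive radical. Repeated doses kill hepatocytes around the central vein. Neutrophils and monocyte-derived macrophages enter to clear debris, stellate cells deposit collagen, and surviving hepatocytes and duct cells divide. Hepatocytes themselves are a secretory cell type, with an extensive endoplasmic reticulum, and carry many genes whose level differs between male and female mice under control of pulsatile growth hormone.

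Of 14125 genes tested with edgeR's quasi-likelihood test, 1360 were higher in fibrotic liver and 567 lower, which is 13.6% of genes, 9.63% in the upward and 4.01% in the downward direction. When the Hk2-deleted section stood in for fibrotic replicate 1, 1191 were higher and 686 lower, of which 1080 and 477 were shared with the main calls. In 41.2% of the genes tested both fibrotic sections lay above the healthy section, in 41.3% both lay below, and in 17.4% they fell on opposite sides. In spots that hold several cell types, a gene can be lower because fewer cells of a type are present or because each cell holds less of its RNA, and the sums cannot tell these apart. The plot of calls per gene list sets each list beside the shares over all genes. Every count of list members called below is to be read against those shares, 9.63% higher and 4.01% lower.

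**Figure D1:**
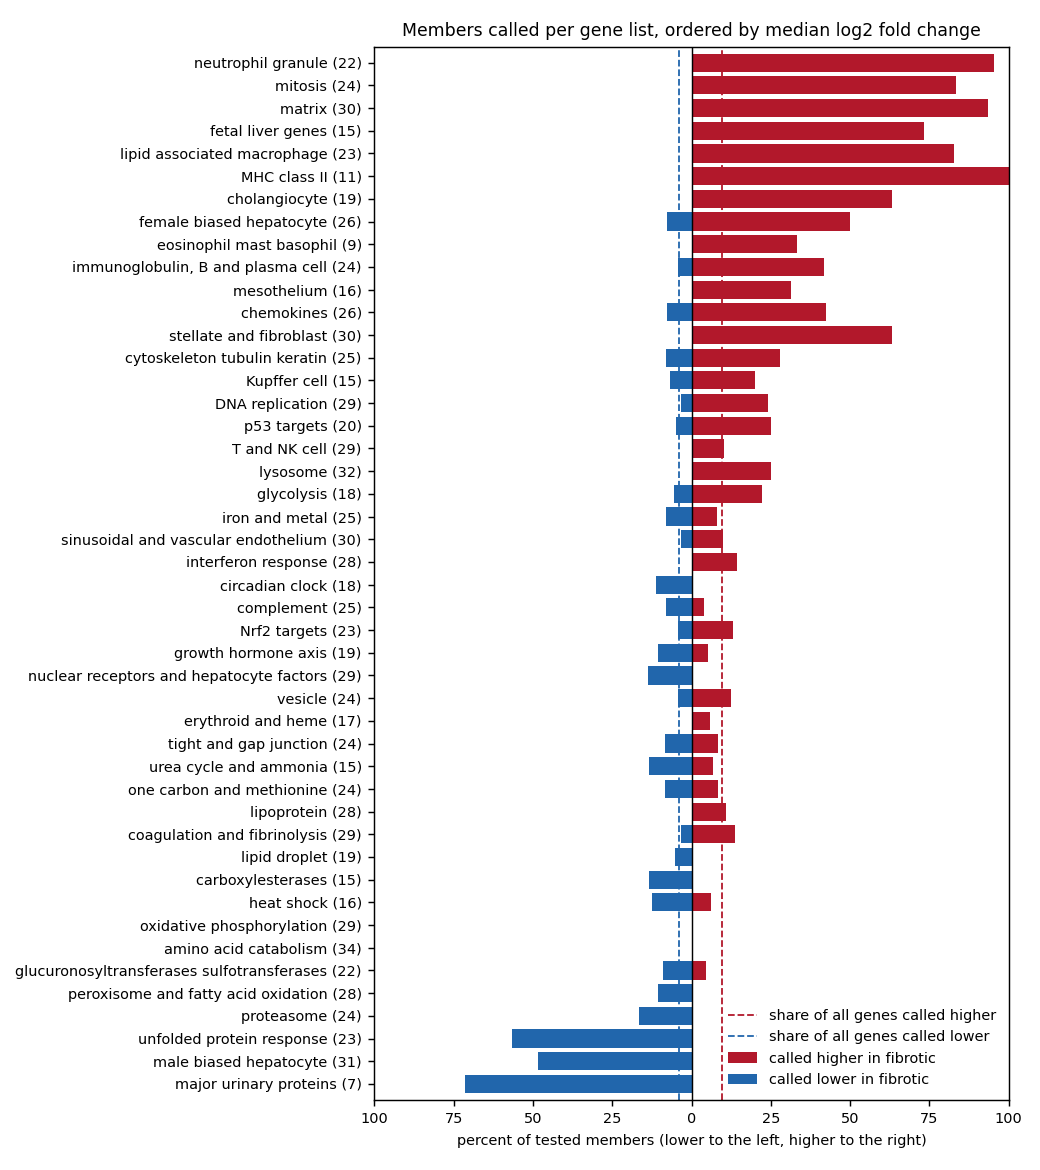
Percent of tested members of each gene list called higher (bars to the right) or lower (bars to the left) in fibrotic liver, ordered by median log2 fold change, with the number tested in parentheses. Dashed lines mark the shares over all genes, 9.63% higher and 4.01% lower; the MHC class II, neutrophil granule and matrix bars reach furthest right and the major urinary protein, unfolded protein response and male-biased bars furthest left.

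Neutrophil genes were the group with the highest median. Neutrophils carry antimicrobial proteins in granules, made in sequence as the cell matures in the marrow. Of 22 tested members of 24 listed, 21 rose and none fell, with a median of 5.08 log2 (4.98 with the 2 members without a healthy UMI at their bound). Lactoferrin (Ltf, ENSMUSG00000032496, chromosome 9, 111019292 to 111042766 of GRCm38.p6), of the specific granules, was at 30.2 and 64.8 CPM in the fibrotic sections, against 0.0889 CPM in the healthy section. That healthy level rests on 4 UMIs, with an exact Poisson 95% interval of 0.0242 to 0.228 CPM that covers counting error only, as do the intervals given for other genes. Camp, the cathelicidin, was at 43.8 and 69.3 CPM in fibrotic liver and 0.333 CPM in healthy liver, a log2 fold change of 7.40 ± 0.39 (SE, adjusted p = 1.4e-10). Genes of the azurophil granules, known to be transcribed mainly in neutrophil precursors, rose as well. Myeloperoxidase (Mpo) had 513 and 176 UMIs in the fibrotic sections and none of 54031683 in the healthy section, and was at least 84.0-fold higher against a floor of 3 UMIs. Cathepsin G (Ctsg) stood at 5.07 and 4.77 CPM in fibrotic liver against 1 UMI in healthy liver, a ratio of 224 with a counting interval of 39.96 to 8844. Chil3, a chitinase-like protein, was at least 9.82-fold higher.

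The alarmin subunits S100a8 and S100a9 and the secreted Retnlg were higher in fibrotic replicate 2 than in replicate 1. S100a9 was at 244 and 616 CPM in the fibrotic sections, against 13.5 CPM in the healthy section (log2 fold change 4.99 ± 0.51, adjusted p = 1.8e-06). S100a8 was at 114 and 267 CPM in fibrotic liver and 6.04 CPM in healthy liver. Ngp, a granule protein of the cathelicidin family, stood at 84.5 and 155 CPM in fibrotic liver and at 0.800 CPM in healthy liver. The healthy section was the lowest for each of these genes, as a call requires. Without a test this held for 41.2% of all genes tested. Without fibrotic replicate 2 the log2 differences were 8.38 for Ltf, 4.17 for S100a9, 4.24 for S100a8 and 4.16 for Retnlg, and without replicate 1 that of Retnlg was 5.76. When replicate 1 was replaced, 20 of 22 members were higher. Markers of eosinophils, mast cells and basophils were scarcer, with 3 of 9 tested members of 20 listed higher: Prg2 (eosinophil major basic protein, 1.65 and 0.553 CPM in fibrotic and 0.0889 CPM in healthy liver), the basophil protease Mcpt8 and the histamine-forming enzyme Hdc. Mcpt8 lost its call without mesothelial-marker spots, Mcpt8 and Hdc lost it with DESeq2, and the log2 difference of Prg2 was 2.61 without replicate 1.

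**Figure D2:**
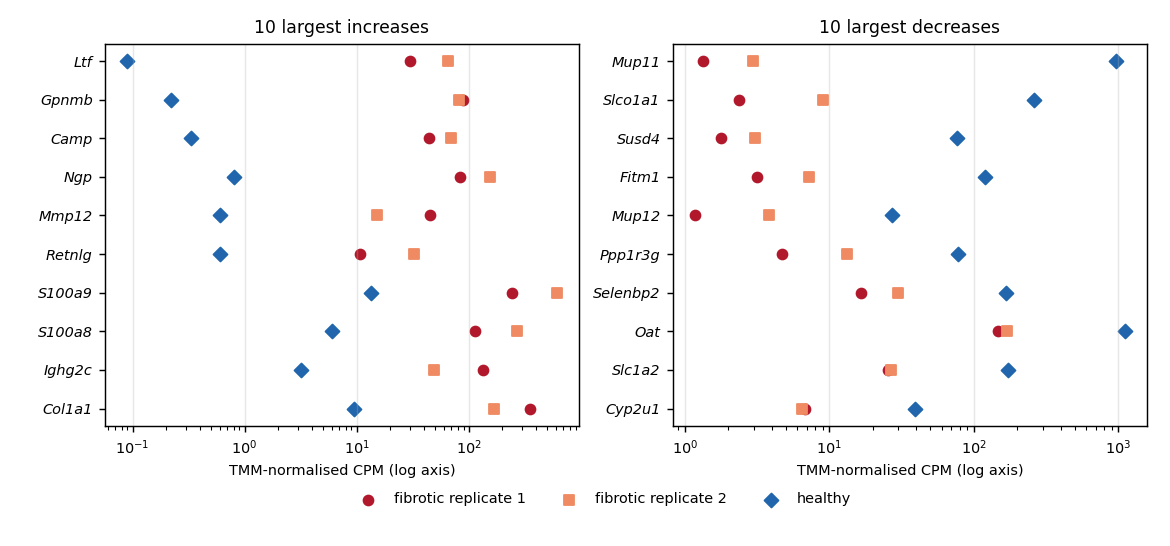
TMM-normalised CPM, on a log axis, of the 10 largest increases and the 10 largest decreases among called genes with a mean of at least 10 CPM, with 1 point for each fibrotic section and for the healthy section. Both fibrotic points lie on the same side of the healthy point for all 20 genes, as a call requires. The healthy level of Ltf is 0.0889 CPM and that of Mup11 is 958 CPM.

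Most macrophage genes of the lipid-handling, scar-associated type rose. Of 23 tested lipid-associated macrophage genes, 19 rose and none fell, with a median of 1.505 log2, and 19 were higher with replicate 1 replaced. For 3 of the 23 both fibrotic sections lay below the healthy section, and DESeq2 called 19 higher and 1 lower. The summed level of the list was lower in fibrotic liver, at 7868 and 8113 CPM against 11315 CPM in healthy liver. Of the 23, 11 are shared with other lists. Gpnmb (ENSMUSG00000029816, chromosome 6, 49036518 to 49058182), a lysosomal glycoprotein of phagocytes, was at 89.3 and 82.5 CPM in the fibrotic sections, against 0.222 CPM in healthy liver, where 10 UMIs allow 0.107 to 0.409 CPM. Its log2 fold change was 8.58 ± 0.37 (adjusted p = 1.9e-11). The lipid receptor Trem2 was at 28.6 and 17.99 CPM in fibrotic and 1.40 CPM in healthy liver, the macrophage elastase Mmp12 at 45.0 and 15.4 CPM in fibrotic and 0.600 CPM in healthy liver. Cx3cr1, the fractalkine receptor of monocyte-derived cells, was at 9.28 and 7.41 CPM in fibrotic and 0.844 CPM in healthy liver. Mmp12 differed most between the fibrotic sections, and its log2 difference was 4.67 without replicate 1.

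Among 15 tested Kupffer cell genes, 3 rose and 1 fell, but with total-UMI scaling or equal weight per spot 10 were higher and none lower. The scavenger receptor Marco was at 102 and 56.5 CPM in fibrotic and 25.6 CPM in healthy liver (log2 fold change 1.62 ± 0.29). Adgre1, which encodes the F4/80 antigen, and the CSF1 receptor Csf1r were also higher. Timd4, the phosphatidylserine receptor that marks long-lived Kupffer cells, was lower, at 17.0 and 20.3 CPM in fibrotic and 28.6 CPM in healthy liver (log2 fold change -0.61 ± 0.18, adjusted p = 0.029). The call of Timd4 was lost when sections were scaled by total UMIs and with DESeq2, and that of Csf1r with replicate 1 replaced. Lysosomal genes had 8 of 32 members higher and none lower, with a median of 0.27 log2, and 16 higher with total-UMI scaling or equal weight per spot. Besides Gpnmb these included the collagen-degrading cathepsin Ctsk (14.4 and 8.62 CPM in fibrotic, 2.16 CPM in healthy liver), the proton pump subunit Atp6v0d2 (12.97 and 8.01 CPM in fibrotic, 3.64 CPM in healthy liver) and Laptm5 (117 and 98.8 CPM in fibrotic, 49.97 CPM in healthy liver). Of the 32, 5 also stand in other lists.

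**Figure D3:**
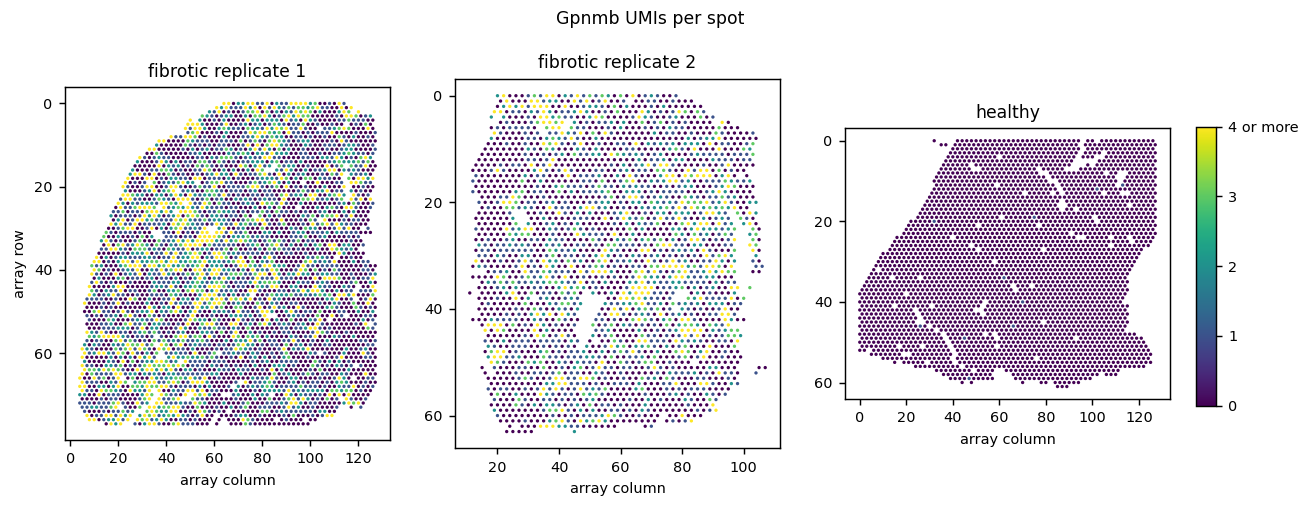
Gpnmb UMIs per spot, at array row and column, in fibrotic replicates 1 and 2 and in the healthy section. Spots with a UMI made up 62.7% and 54.4% of spots in the fibrotic sections and 0.326% in the healthy section.

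Antigen presentation through MHC class II, by which macrophages, dendritic cells and B cells show peptides to helper T cells, rose as a whole group. All 11 tested genes passed in the main comparison, and all 11 passed with replicate 1 replaced, with a median of 1.49 log2. Ciita, the coactivator that drives the class II genes, was at 20.2 and 11.3 CPM in fibrotic and 4.33 CPM in healthy liver (log2 fold change 1.87 ± 0.29, adjusted p = 0.00019). The chain genes H2-Aa (360 and 225 CPM in fibrotic, 100 CPM in healthy liver) and H2-Eb1 (195 and 121 CPM in fibrotic, 47.0 CPM in healthy liver) and the peptide-loading H2-DMb1 followed. Cd74, the invariant chain, was among the largest gains in level, at 1308 and 796 CPM in fibrotic and 396 CPM in healthy liver. For each of the genes given, replicate 1 held a higher level than replicate 2, and both lay above the healthy section, as a call requires.

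Antibody genes rose, and T cell genes mostly did not pass. Of 24 immunoglobulin, B cell and plasma cell genes, 10 rose and 1 fell (Derl3, a retrotranslocation factor, at -0.92 log2), and with replicate 1 replaced 9 rose and 1 fell. The IgG2c heavy chain Ighg2c was at 134 and 49.4 CPM in fibrotic and 3.18 CPM in healthy liver (log2 fold change 4.85 ± 0.46), the IgG2b chain Ighg2b at 104 and 43.2 CPM in fibrotic and 8.66 CPM in healthy liver. The light chain Iglc1 (41.5 and 37.5 CPM in fibrotic, 11.7 CPM in healthy liver) and the IgM chain Ighm (67.3 and 38.0 CPM in fibrotic, 20.2 CPM in healthy liver) rose less. Immunoglobulin constant regions are near-identical in part, and how counts were split between them is not given in the sources used here. Without replicate 1 the log2 differences were 3.96 for Ighg2c and 2.32 for Ighg2b. Of 29 T and NK cell genes 3 rose, which is close to the share over all genes: Foxp3, the regulatory T cell factor, and the inhibitory receptors Ctla4 and Pdcd1. Pdcd1 was at 0.845 and 0.904 CPM in fibrotic and 0.156 CPM in healthy liver. Foxp3 rests on 3 healthy UMIs, a ratio of 15.2 with a counting interval of 5.07 to 74.7, and had a log2 difference of 2.87 without replicate 1. All 3 lost their calls with DESeq2, and Foxp3 and Ctla4 with replicate 1 replaced. Interferon response genes had 4 of 28 higher, of which the largest log2 fold change was 0.92 ± 0.24 (Oas3). Oas2, Oas3, Oasl2 and Irf8 were not called with DESeq2, and Oas2 and Oasl2 not with replicate 1 replaced.

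Chemokines and their receptors had 11 of 26 tested members higher and 2 lower (Cxcl13 and Cxcl1, at -1.78 and -1.03 log2), with a median of 0.84 log2. With replicate 1 replaced, 7 were higher and none lower. The receptor Cxcr4, carried by most leukocytes, was at 13.1 and 15.9 CPM in fibrotic and 2.91 CPM in healthy liver (log2 fold change 2.31 ± 0.25, adjusted p = 3.8e-06). Ccr1, a receptor of monocytes and neutrophils, was at 1.41 and 2.21 CPM in fibrotic and 0.355 CPM in healthy liver. The ligands Ccl3 (2.38 and 2.81 CPM in fibrotic, 0.378 CPM in healthy liver) and Cxcl5 (1.73 and 0.779 CPM in fibrotic, 0.133 CPM in healthy liver) rose at low levels, and neither was called with replicate 1 replaced. Without replicate 1 the log2 difference of Cxcl5 was 2.53.

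Matrix genes served as the check on the fibrosis label, with 28 of 30 higher, none lower and a median of 1.86 log2. Col1a1 was at 351 and 168 CPM in fibrotic and 9.40 CPM in healthy liver, Mmp2, a gelatinase, at 76.3 and 48.1 CPM in fibrotic and 4.15 CPM in healthy liver. Both groups of values were far apart, and replicate 1 was higher than replicate 2. Stellate cell and fibroblast genes had 19 of 30 higher and none lower, and 11 of 30 with replicate 1 replaced. Among these were the elastic fibre protein Mfap4 (20.9 and 8.29 CPM in fibrotic, 1.53 CPM in healthy liver), the matrix protein Dpt (98.4 and 46.9 CPM in fibrotic, 9.95 CPM in healthy liver) and the Hedgehog effector Gli1, which lost its call with replicate 1 replaced and with DESeq2. Acta2, the smooth muscle actin of myofibroblasts, was at 9.99 and 5.53 CPM in fibrotic and 5.47 CPM in healthy liver and did not pass (log2 fold change 0.52 ± 0.28, adjusted p = 0.25). Without replicate 1 the log2 differences were 4.16 for Col1a1, 2.43 for Mfap4, 2.24 for Dpt and 1.92 for Gli1.

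Vessel genes moved little as a group: of 30 sinusoidal and vascular endothelial genes, 3 rose and 1 fell, with a median of 0.07 log2. Over all genes 9.63% rose and 4.01% fell. Lyve1, the hyaluronan receptor, was at 4.68 and 6.71 CPM in fibrotic and 1.24 CPM in healthy liver. Cd34, a marker of capillary endothelium and fibroblasts, was at 18.9 and 12.8 CPM in fibrotic and 3.49 CPM in healthy liver, and the receptor Tie1 was higher too. Ehd3, a membrane-trafficking protein of sinusoids, was lower, at 118 and 132 CPM in fibrotic and 235 CPM in healthy liver (log2 fold change -0.91 ± 0.25).

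Bile duct and fetal liver genes rose. Duct-like cells expand in chronic injury, and injured liver is known to switch some fetal genes back on. Of 19 cholangiocyte genes, 12 rose and none fell (median 1.48 log2; 8 with replicate 1 replaced). The matrix protease Mmp7 was at 9.24 and 5.63 CPM in fibrotic and 0.200 CPM in healthy liver (log2 fold change 5.21 ± 0.49, adjusted p = 6.4e-07), and the surface protein Cd24a at 11.7 and 13.7 CPM in fibrotic and 3.38 CPM in healthy liver. Tight-junction Cldn4 and the trefoil factor Tff2 passed in the main comparison but not with replicate 1 replaced, nor did the keratins Krt7 and Krt19. Of 15 tested fetal liver genes, 11 rose and none fell (median 1.77 log2; 9 with replicate 1 replaced). Ly6d, a surface protein, was at 52.5 and 44.1 CPM in fibrotic and 2.82 CPM in healthy liver (log2 fold change 4.10 ± 0.24). The steroid-metabolising Akr1c18 was at 4.18 and 3.77 CPM in fibrotic liver against 3 UMIs in healthy liver, a ratio of 60.6 with a counting interval of 20.6 to 295. Dlk1, a Notch-family ligand of fetal hepatoblasts, had 2 healthy UMIs and a ratio of 41.1 (11.2 to 341), with a log2 difference of 4.43 without replicate 1. Alpha-fetoprotein (Afp) was at 6.57 and 2.66 CPM in fibrotic and 1.07 CPM in healthy liver, and was not called with replicate 1 replaced, which left a log2 difference of 1.32 without it. In each of these lists 6 members also stand in other lists.

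Mesothelial genes, of the liver's outer covering, separated the fibrotic sections. Of 16 tested, 5 rose, with 2 higher when replicate 1 was replaced and 2 with DESeq2, and the median log2 ratio to healthy was 1.79 in replicate 1 and -0.75 in replicate 2. Summed Msln, Upk3b and Wt1 were at 11.9 and 3.04 CPM in the fibrotic sections and 2.87 CPM in the healthy section, and their part in these differences was not tested. The secreted protease inhibitor Slpi was at 51.4 and 16.0 CPM in fibrotic and 4.84 CPM in healthy liver, and its log2 difference was 1.73 without replicate 1 and 3.41 without replicate 2. Wt1, a transcription factor of mesothelium, was at 4.17 and 2.76 CPM in fibrotic and 0.489 CPM in healthy liver. In replicate 2 it was found in 104 spots, while 59 spots held or adjoined an Msln or Upk3b UMI, so some Wt1 lay elsewhere. Wt1 made up most of the summed level in replicate 2 but a small part of it in healthy liver. Msln and Upk3b together were therefore lower in replicate 2 than in healthy liver, although the sums were close. Aldh1a2, which makes retinoic acid (log2 difference 1.00 without replicate 1), and Krt19 lost their calls when spots with or beside mesothelial markers were left out, and Slpi, Aldh1a2 and Krt19 with DESeq2. Without those spots 1245 genes were higher and 499 lower over the whole table.

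Genes of mitosis rose, and some of those of DNA replication. Of 24 tested mitotic genes, 20 rose, none fell and both fibrotic sections lay above the healthy section for all 24, with a median of 2.10 log2. There were 17 higher with replicate 1 replaced and 13 with DESeq2. The proliferation antigen Mki67 was at 19.9 and 12.3 CPM in fibrotic and 2.56 CPM in healthy liver (log2 fold change 2.66 ± 0.29, adjusted p = 3.3e-06). Prc1, which bundles microtubules of the central spindle, was at 7.93 and 5.15 CPM in fibrotic and 0.933 CPM in healthy liver, the kinetochore protein Cenpf at 3.14 and 1.98 CPM in fibrotic and 0.267 CPM in healthy liver. The mitotic kinase Plk1 was at 2.44 and 1.53 CPM in fibrotic and 0.289 CPM in healthy liver. DNA replication genes had 7 of 29 higher and 1 lower, with a median of 0.37 log2. Cyclin E1 (Ccne1) was at 4.41 and 5.85 CPM in fibrotic and 2.40 CPM in healthy liver, while the replication initiator Mcm10 was at 47.0 and 102 CPM in fibrotic and 187 CPM in healthy liver (log2 fold change -1.33 ± 0.30, -1.99 without replicate 2). Cdc6 and Uhrf1 were not called with replicate 1 replaced, and Ccne1, Cdc6, Uhrf1 and Mcm10 were not called with DESeq2.

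Promoters of mitotic genes are known for a short element, the cell cycle genes homology region with the letters TTTGAA, often near a CCAAT box. In windows of 300 bases from RefSeq (GRCm38.p6), TTTGAA on either strand occurred in 16 of the 21 mitotic genes that had a window (76.2%) and in 13 of the 16 of these called higher (81.3%), against 20.2% of 27025 genes. CCAAT on either strand occurred in 85.7% of the mitotic windows, against 41.1% of all windows. The windows of the 2 called members with the largest change that held TTTGAA are shown because the members rose together, with the element in capitals. Cenpf lies at chr1:189688037-189688336 on the minus strand, with the element starting at base 3 after the start site. Prc1 lies at chr7:80294201-80294500 on the plus strand, with the element starting at base -5.
Cenpf: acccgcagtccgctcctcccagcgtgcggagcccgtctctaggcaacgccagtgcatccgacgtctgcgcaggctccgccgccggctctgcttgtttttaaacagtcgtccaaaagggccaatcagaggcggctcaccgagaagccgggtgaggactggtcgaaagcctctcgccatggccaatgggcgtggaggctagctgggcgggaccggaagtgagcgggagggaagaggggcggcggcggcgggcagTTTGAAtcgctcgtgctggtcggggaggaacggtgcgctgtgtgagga
Prc1: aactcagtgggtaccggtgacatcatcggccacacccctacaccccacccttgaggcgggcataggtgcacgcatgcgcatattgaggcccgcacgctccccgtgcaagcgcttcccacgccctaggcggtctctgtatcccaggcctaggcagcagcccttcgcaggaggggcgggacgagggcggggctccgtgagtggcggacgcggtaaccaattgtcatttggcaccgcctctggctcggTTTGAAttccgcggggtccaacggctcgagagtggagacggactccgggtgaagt

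**Figure D4:**
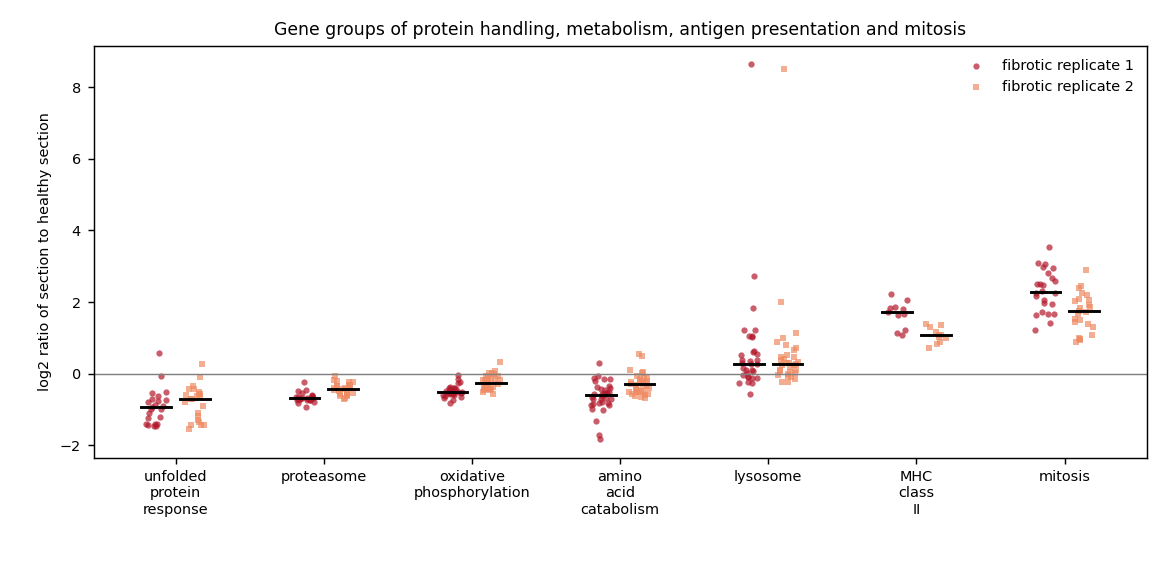
Log2 ratio of each fibrotic section to the healthy section for every tested member of 7 gene groups, with the median as a black line, replicate 1 left of replicate 2. Mitotic and MHC class II genes lie above 0 in both sections, and unfolded protein response and proteasome genes lie mostly below 0.

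Hepatocyte genes with a known male or female bias differed between fibrotic and healthy liver. The 9 hepatocyte markers, which albumin dominates, summed to 160100 and 163800 CPM in fibrotic liver and to 247600 CPM in healthy liver. These sums depend on the TMM factors. As a share of all UMIs, albumin was at 12.25% and 10.07% in fibrotic and 13.52% in healthy liver. By that share Apoa1, Ttr and Cyp2e1 were lower in both fibrotic sections and Serpina1a lay on opposite sides of healthy liver. Trf was higher, at 1.478% and 1.442% in fibrotic and 0.808% in healthy liver. The part of the difference in the summed markers in the decreases of this and the following groups was not tested. Of 31 tested male-biased genes, 15 fell and none rose (median -1.14 log2), and of 26 tested female-biased genes 13 rose and 2 fell (median 1.27 log2). With replicate 1 replaced, 11 male-biased genes fell and 1 rose, and 8 female-biased genes rose and 4 fell. The 2 female-biased genes that fell in the main comparison were the cytochrome Cyp4a14 (55.1 and 41.0 CPM in fibrotic, 117 CPM in healthy liver) and the factor Tox, at -1.28 and -1.09 log2. Of the male-biased list 10 members, and of the female-biased list 5, also stand in other lists. The male-biased median was -1.93 in fibrotic replicate 1 and -0.84 in replicate 2, and -1.82 in the Hk2-deleted section, whose Y-linked transcripts were present. The female-biased median was 1.34 in fibrotic replicate 1, 0.46 in replicate 2 and 0.88 in the Hk2-deleted section. In replicate 1 the near absence of Y-linked transcripts and the injury cannot be told apart.

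The steroid dehydrogenase Hsd3b5, a textbook male-specific hepatocyte gene, had 4 and 8 UMIs in the fibrotic sections and 1332 in the healthy section, or 0.0528 and 0.201 CPM in fibrotic and 29.6 CPM in healthy liver (log2 fold change -8.08 ± 0.36, adjusted p = 1.9e-11). The fatty acid elongase Elovl3 had 3 and 4 UMIs in fibrotic liver and 261 in healthy liver. Slco1a1, an organic anion transporter, was at 2.36 and 9.12 CPM in fibrotic and 261 CPM in healthy liver, and Susd4, a complement regulator, at 1.79 and 3.07 CPM in fibrotic and 77.1 CPM in healthy liver. All 4 remained lower with replicate 1 replaced, and in each both fibrotic sections lay far below the healthy section. Without replicate 1 the log2 difference of Hsd3b5 was -7.19 and that of Slco1a1 -4.84; without replicate 2 they were -9.07 and -6.79. Those of Elovl3 were -5.82 and -7.12.

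Female-biased genes differed between the fibrotic sections. A1bg, a plasma glycoprotein, was at 15.4 and 0.176 CPM in the fibrotic sections, with 3 UMIs in the healthy section. Hao2, a peroxisomal hydroxyacid oxidase, was at 10.8 and 1.53 CPM in fibrotic and 0.866 CPM in healthy liver, and the cytochrome Cyp3a44 at 4.39 and 2.04 CPM in fibrotic and 0.311 CPM in healthy liver. None of these 3 was called with replicate 1 replaced, and their log2 differences without it were 1.37, 0.82 and 2.70. The sulfotransferase Sult2a2 had no UMI in the healthy section and was at 2.44 and 0.502 CPM in fibrotic liver, at least 22.1-fold higher (at least 7.54-fold in replicate 2 alone), and it was also called with replicate 1 replaced.

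Major urinary proteins are small secreted pheromone carriers made by male hepatocytes in large amounts. Of 22 listed genes 9 were in the matrices and 7 were tested, of which 5 fell and none rose, also with replicate 1 replaced. These genes are near-identical copies, and reads may be split between them. Mup11 (ENSMUSG00000073834, chromosome 4, 60658466 to 60662432) was at 1.35 and 2.99 CPM in fibrotic liver and 958 CPM in healthy liver (log2 fold change -8.83 ± 0.41, adjusted p = 1.9e-11). It stood at 1.32 CPM in the Hk2-deleted section, close to the fibrotic sections. Mup12, Mup10, Mup17 and Mup18 fell by between 1.69 and 3.50 on the log2 scale. Mup10 was at 57.7 and 155 CPM in fibrotic and 343 CPM in healthy liver, and Mup17 at 211 and 514 CPM in fibrotic and 1300.4 CPM in healthy liver. Mup3 was at 3830 and 7670 CPM in fibrotic and 14577 CPM in healthy liver and did not pass (adjusted p = 0.24). Mup20, darcin, was at 528 and 4047 CPM in fibrotic and 3530 CPM in healthy liver, on opposite sides of the healthy level. Only Mup11 of the 5 was called with DESeq2. Without replicate 2 the log2 differences were -9.47 for Mup11, -4.54 for Mup12, -2.57 for Mup10, -2.63 for Mup17 and -3.88 for Mup18, and without replicate 1 they were -2.83 for Mup12 and -1.89 for Mup18.

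**Figure D5:**
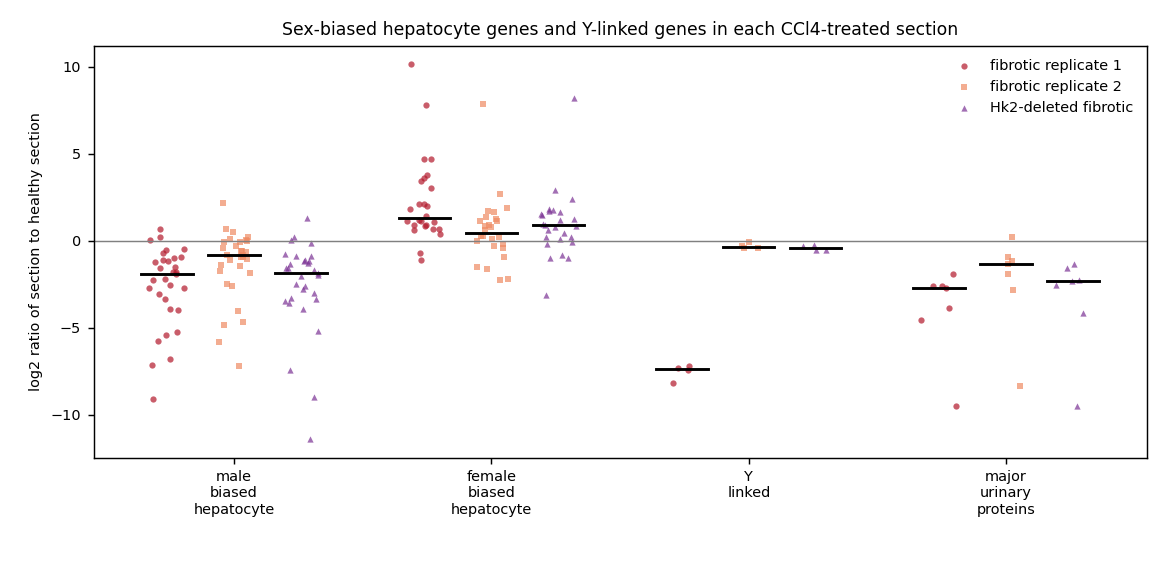
Log2 ratio to the healthy section of every tested member of the male-biased, female-biased, Y-linked and major urinary protein lists, in fibrotic replicate 1, fibrotic replicate 2 and the Hk2-deleted section, with medians as black lines. Only replicate 1 lies far below 0 for the Y-linked genes, while male-biased genes have medians of -1.93, -0.84 and -1.82 in these sections. Female-biased genes have medians of 1.34, 0.46 and 0.88 in the same order.

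The unfolded protein response is the program that raises chaperones and degradation factors of the endoplasmic reticulum when proteins misfold there, through the sensors ATF6, IRE1 and PERK. Genes of this list were lower in fibrotic liver. Of 23 tested members, 13 fell, none rose and both fibrotic sections lay below the healthy section for 22, with a median of -0.78 log2. With replicate 1 replaced 12 fell, with DESeq2 15, and with sections scaled by total UMIs 10 fell and 1 rose. The chaperone Hspa5 (BiP, chromosome 2, 34772090 to 34776529) was at 379 and 377 CPM in fibrotic and 1020 CPM in healthy liver (log2 fold change -1.43 ± 0.34, adjusted p = 0.0066). Manf, a secreted protein of the stressed reticulum, was at 151 and 155 CPM in fibrotic and 416 CPM in healthy liver. The ubiquitin ligase Syvn1, which marks misfolded proteins for degradation, was at 48.2 and 46.6 CPM in fibrotic and 127 CPM in healthy liver, and Creld2, a disulfide isomerase, at 37.2 and 33.7 CPM in fibrotic and 99.2 CPM in healthy liver. The fibrotic sections were close together and well apart from the healthy section in each of these. All 4 also fell with total-UMI scaling, with DESeq2 and with replicate 1 replaced.

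ATF6 is known to act through the endoplasmic reticulum stress element, which reads CCAAT, any 9 letters and CCACG. On either strand it occurred in the windows of 8 of 21 unfolded protein response genes (38.1%), of which 3 were among the 10 called members with a window, and in 37 of 27025 genes (0.137%). The element contains a CCAAT box, which by itself occurred in 90.5% of the list's windows. The windows of the 3 called members that held the element are shown with it in capitals. Creld2 lies at chr15:88819396-88819695, Hspa5 at chr2:34771840-34772139 and Syvn1 at chr19:6046326-6046625, all on the plus strand. The element starts 126, 65 and 44 bases before the start site, and in Creld2 it reads on the opposite strand.
Creld2: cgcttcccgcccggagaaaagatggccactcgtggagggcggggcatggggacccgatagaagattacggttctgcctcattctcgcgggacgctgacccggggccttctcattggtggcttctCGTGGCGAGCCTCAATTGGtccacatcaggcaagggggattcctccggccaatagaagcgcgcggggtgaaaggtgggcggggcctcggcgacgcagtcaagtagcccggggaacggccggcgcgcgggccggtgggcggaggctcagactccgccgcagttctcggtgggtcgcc
Hspa5: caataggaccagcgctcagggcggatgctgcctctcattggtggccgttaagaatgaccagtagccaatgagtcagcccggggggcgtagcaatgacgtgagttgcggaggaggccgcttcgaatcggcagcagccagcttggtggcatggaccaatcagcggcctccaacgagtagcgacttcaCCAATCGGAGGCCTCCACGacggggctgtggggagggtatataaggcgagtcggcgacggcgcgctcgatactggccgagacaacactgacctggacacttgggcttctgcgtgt
Syvn1: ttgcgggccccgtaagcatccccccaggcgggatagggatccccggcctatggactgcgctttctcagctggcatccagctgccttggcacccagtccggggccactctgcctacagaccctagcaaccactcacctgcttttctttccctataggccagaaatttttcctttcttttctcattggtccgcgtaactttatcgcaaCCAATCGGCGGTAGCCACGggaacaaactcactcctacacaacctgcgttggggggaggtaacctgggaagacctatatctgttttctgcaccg

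The proteasome degrades ubiquitin-tagged proteins, and 4 of its 24 tested genes fell, with both fibrotic sections below the healthy section for all 24 and a median of -0.55 log2. The ATPase subunit Psmc5 was at 21.9 and 25.5 CPM in fibrotic and 41.7 CPM in healthy liver (log2 fold change -0.82 ± 0.18). Psmd3, Psmc3 and Psmd14 differed by -0.72, -0.68 and -0.67 log2. None of the 4 was called with total-UMI scaling, which gave the list a median of -0.22. Oxidative phosphorylation genes had none of 29 called by the main edgeR fit or DESeq2. In the main edgeR fit 4 were lower at an unadjusted p under 0.05, and the share of all genes under that threshold was not worked out. With no filter 1 was called lower, and with all 3 CCl4-treated sections 1. Both fibrotic sections lay below the healthy section for 25. The median of -0.37 log2 became -0.04 with total-UMI scaling. The respiratory complex I subunit Ndufb10 was at 503 and 624 CPM in fibrotic and 779 CPM in healthy liver. Cytosolic heat shock genes had 1 of 16 higher, the small chaperone Cryab (25.7 and 20.2 CPM in fibrotic, 13.2 CPM in healthy liver), and 2 lower, Hspa1b and Bag3. All 3 lost their calls with DESeq2, and Hspa1b and Bag3 with total-UMI scaling.

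Genes of nitrogen handling in hepatocytes near the central vein were among the largest decreases. Oat, which converts ornithine, was at 146 and 169 CPM in fibrotic and 1115 CPM in healthy liver (log2 fold change -2.82 ± 0.31, adjusted p = 3.3e-06), and the glutamate transporter Slc1a2 at 25.4 and 26.8 CPM in fibrotic and 173 CPM in healthy liver. The ammonium transporter Rhbg went the other way, at 11.5 and 8.44 CPM in fibrotic and 4.02 CPM in healthy liver. These were the 3 calls among 15 genes of the urea cycle and ammonia handling. None of 34 amino acid catabolism genes was called by the main edgeR fit, 7 were lower there at an unadjusted p under 0.05, and DESeq2 called 3 lower. The share of all genes under that unadjusted threshold was not worked out, so the 7 are not read as an excess. Other edgeR settings called 1 higher and 3 lower (total-UMI scaling), 5 lower (no filter) and 3 lower (all 3 CCl4-treated sections). The limma fit with equal weight per spot called 1 higher and 4 lower. Tyrosine aminotransferase Tat was at 695 and 1575 CPM in fibrotic and 2266 CPM in healthy liver, and Hpd, of the same pathway, at 2826 and 2755 CPM in fibrotic and 4183 CPM in healthy liver. Both fibrotic sections lay below the healthy section for 29 of the 34, with a median of -0.42 log2 that became -0.08 with total-UMI scaling. Among folate and methionine genes, the serine synthesis enzyme Psat1 was higher, and Cbs (162 and 219 CPM in fibrotic, 360 CPM in healthy liver) and Mthfd1 were lower. Psat1 and Cbs were not called with replicate 1 replaced.

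Lipid genes showed named changes on both sides. Fitm1, which helps lipid droplets bud, was the only call among 19 lipid droplet genes, at 3.15 and 7.29 CPM in fibrotic and 121 CPM in healthy liver (log2 fold change -4.56 ± 0.29, adjusted p = 3.7e-09; -5.25 without replicate 2). Of 28 genes of peroxisomes and fatty acid oxidation 3 fell, Fabp1, the liver fatty acid carrier (264 and 284 CPM in fibrotic, 801 CPM in healthy liver), the thioesterase Acot1 (24.4 and 17.6 CPM in fibrotic, 45.6 CPM in healthy liver) and the bile acid side chain oxidase Acox2 (188 and 197 CPM in fibrotic, 364 CPM in healthy liver). Of 28 lipoprotein genes 3 rose and none fell: the apolipoprotein Apoa4 (482 and 673 CPM in fibrotic, 85.8 CPM in healthy liver), lipoprotein lipase Lpl (154 and 113 CPM in fibrotic, 54.3 CPM in healthy liver) and the cholesterol exporter Abcg1. Nudt7, a peroxisomal coenzyme A hydrolase, was among the largest losses in level, at 213 and 524 CPM in fibrotic and 1391 CPM in healthy liver. It was not called with DESeq2, and its log2 difference was -2.71 without replicate 2. Car3, a carbonic anhydrase of pericentral hepatocytes, was at 1402 and 1457 CPM in fibrotic and 4511 CPM in healthy liver. Ppp1r3g, a glycogen-targeting subunit of protein phosphatase 1, was at 4.74 and 13.3 CPM in fibrotic and 77.6 CPM in healthy liver, was not called with DESeq2 either, and had a log2 difference of -4.03 without replicate 2. The remaining large decreases were Selenbp2, a selenium-binding protein (16.6 and 30.1 CPM in fibrotic, 167 CPM in healthy liver), and the orphan cytochrome Cyp2u1 (6.77 and 6.53 CPM in fibrotic, 39.4 CPM in healthy liver).

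Drug-conjugating and ester-cleaving enzymes mostly did not pass. Carboxylesterases had 2 of 15 lower, Ces1e (64.1 and 75.6 CPM in fibrotic, 148 CPM in healthy liver) and Ces4a. Of 22 glucuronosyltransferases and sulfotransferases 1 rose, Sult5a1, and 2 fell, Sult1c2 and Sult1b1. The Nrf2 targets, which detoxify reactive compounds, had 3 of 23 higher and 1 lower, against 9.63% and 4.01% over all genes. Gstm3, a glutathione transferase, was at 442 and 482 CPM in fibrotic and 85.3 CPM in healthy liver (log2 fold change 2.44 ± 0.34). The carbonyl reductase Cbr3 and the exporter Abcc4 were also higher, and malic enzyme Me1 was lower, at -0.92 ± 0.22 log2. Sult5a1 and Abcc4 lost their calls with replicate 1 replaced, and Sult1c2 and Sult1b1 with total-UMI scaling. Targets of p53, the DNA damage factor, had 5 of 20 higher and 1 lower (Trp53inp1, at -0.99 log2). The cell cycle inhibitor Cdkn1a was at 16.0 and 9.42 CPM in fibrotic and 2.53 CPM in healthy liver, Phlda3, an inhibitor of Akt, at 10.7 and 7.09 CPM in fibrotic and 1.93 CPM in healthy liver, and the receptor Eda2r and the spindle protein Psrc1 rose as well.

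Transcription factors and hormone-axis genes gave few calls. Nuclear receptors and hepatocyte factors had 4 of 29 lower and none higher. Nr0b2, the bile acid-induced repressor SHP, was at 29.5 and 23.3 CPM in fibrotic and 99.3 CPM in healthy liver (log2 fold change -1.91 ± 0.20, adjusted p = 2.4e-06). Pparg, Onecut1 and the thyroid hormone receptor Thrb differed by -0.88, -0.90 and -0.70 log2. Onecut1 and Thrb lost their calls with replicate 1 replaced, and Pparg and Thrb with total-UMI scaling. In the growth hormone axis 1 of 19 genes rose, Igf1r, and 2 fell. The IGF-binding protein Igfbp1 was at 75.3 and 174 CPM in fibrotic and 584 CPM in healthy liver, and the cytokine-signalling inhibitor Socs3 at 17.5 and 32.5 CPM in fibrotic and 58.4 CPM in healthy liver. Igfbp1 was not called with DESeq2 and had a log2 difference of -2.96 without replicate 2, and Socs3 not with replicate 1 replaced.

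Clock genes are read as a check on the hour of tissue collection, which the labels do not give. With replicate 1 replaced, 3 of 18 were higher and 3 lower, and with total-UMI scaling 3 were higher and 2 lower. In the main comparison 2 of 18 fell and none rose: the repressor Bhlhe41 (5.73 and 4.62 CPM in fibrotic, 17.9 CPM in healthy liver) and Nfil3 (8.79 and 12.6 CPM in fibrotic, 23.7 CPM in healthy liver). The core gene Arntl was at 6.87 and 4.92 CPM in fibrotic and 5.67 CPM in healthy liver, Per2 at 40.7 and 51.8 CPM in fibrotic and 44.9 CPM in healthy liver, and the output gene Dbp at 211 and 210 CPM in fibrotic and 191 CPM in healthy liver. Nr1d1 was at 93.6 and 42.1 CPM in fibrotic and 125 CPM in healthy liver (adjusted p = 0.062).

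Plasma protein genes, the main output of hepatocytes, did not move as a group. Complement had 1 of 25 higher, C7, and 2 lower. C6 was at 79.9 and 236 CPM in fibrotic and 374 CPM in healthy liver, and Cfd, the fat-derived factor D, had 1 and 0 UMIs in fibrotic and 41 in healthy liver. C6 and C7 lost their calls with replicate 1 replaced and with DESeq2, Cfd with DESeq2, and C6 had a log2 difference of -2.23 without replicate 2. Of 29 coagulation and fibrinolysis genes 4 rose and 1 fell (clotting factor F11, at -1.11 log2). Plaur, the urokinase receptor, was at 5.98 and 6.23 CPM in fibrotic and 1.31 CPM in healthy liver, the tissue activator Plat at 4.04 and 1.93 CPM in fibrotic and 0.333 CPM in healthy liver, and urokinase itself, Plau, and the fibrin-crosslinking F13a1 were also higher, though not with DESeq2. The log2 difference of Plat was 2.53 without replicate 1. Serpina1e, an alpha-1 antitrypsin paralog with near-identical copies, was among the largest losses in level, at 1836 and 4663 CPM in fibrotic and 15226 CPM in healthy liver (log2 fold change -2.23 ± 0.69, adjusted p = 0.036), and lost its call with replicate 1 replaced and with DESeq2, with a log2 difference of -3.05 without replicate 2. Albumin itself was at 109100 and 102680 CPM in fibrotic and 162270 CPM in healthy liver and did not pass (adjusted p = 0.85).

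Iron and metal genes had 2 of 25 higher and 2 lower, against 9.63% and 4.01% over all genes. Hamp2, a hepcidin paralog, was at 798 and 746 CPM in fibrotic and 198 CPM in healthy liver (log2 fold change 1.96 ± 0.39, adjusted p = 0.0021), and the BMP target Id1 at 31.6 and 22.8 CPM in fibrotic and 13.7 CPM in healthy liver. The manganese exporter Slc30a10 (5.17 and 6.43 CPM in fibrotic, 17.2 CPM in healthy liver) and the zinc and iron importer Slc39a14 (51.6 and 59.9 CPM in fibrotic, 104 CPM in healthy liver) were lower. Among 17 red cell and heme genes, beta-globin Hbb-bt was the only call, at 65.2 and 29.1 CPM in fibrotic and 18.3 CPM in healthy liver, and it was not called with replicate 1 replaced (log2 difference 0.67 without it). Cytoskeletal genes had 7 of 25 higher and 2 lower (the tubulins Tubb2a and Tubb4b, at -1.39 and -0.90 log2), with vimentin (Vim) at 173 and 111 CPM in fibrotic and 42.0 CPM in healthy liver and the microtubule destabiliser Stmn1 at 4.30 and 2.61 CPM in fibrotic and 1.04 CPM in healthy liver. Cell junction genes had 2 of 24 higher, Gja1 (connexin 43) and E-cadherin Cdh1, and 2 lower, Cldn2 and Ceacam1, again against 9.63% and 4.01%. Gja1 was at 23.5 and 24.3 CPM in fibrotic and 12.9 CPM in healthy liver, and Cldn2, a pore-forming claudin, at 25.9 and 37.5 CPM in fibrotic and 60.1 CPM in healthy liver. Cdh1 was not called with replicate 1 replaced or with DESeq2. Of 3 tested markers of other organs, the elastase Cela1 was lower, at 7.26 and 6.71 CPM in fibrotic and 15.6 CPM in healthy liver, though not with total-UMI scaling.

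Hk2, floxed but not deleted in these mice, was at 4.34 and 4.02 CPM in fibrotic and 2.22 CPM in healthy liver and did not pass (log2 fold change 0.91 ± 0.34, adjusted p = 0.085), with 3.21 CPM in the Hk2-deleted section. Glycolysis genes had 4 of 18 higher and 1 lower, and vesicle genes 3 of 24 higher and 1 lower, against 9.63% and 4.01% over all genes. Besides Pkm, Slc16a3 and the vesicle gene Cd63, the genes called higher included the neuronal-type enolase Eno2. It was at 1.70 and 0.804 CPM in fibrotic and 0.289 CPM in healthy liver, a log2 difference of 1.47 without replicate 1. The gene called lower was Pfkfb3 for glycolysis (3.21 and 3.84 CPM in fibrotic, 9.02 CPM in healthy liver). For vesicles it was Hgs (30.6 and 27.5 CPM in fibrotic, 47.6 CPM in healthy liver). With total-UMI scaling 7 glycolysis and 5 vesicle genes were higher and none lower. Replacing replicate 1 left 1 glycolysis gene higher and 2 lower.

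The genes below differed in how widely they were spread over the sections. Ngp was found in 48.0% and 62.9% of fibrotic and 0.914% of healthy spots, Trem2 in 35.4% and 21.96% of fibrotic and 2.02% of healthy spots, and Ly6d in 49.6% and 40.8% of fibrotic and 4.01% of healthy spots. With spots thinned to 5000 UMIs, which left out 37, 9 and 16 spots, Gpnmb was found in 32.5% and 28.8% of fibrotic spots and 0.0838% of healthy spots. Mup11 was found in 2.42% and 4.39% of fibrotic spots and 99.7% of healthy spots. The 5% of spots richest in Ngp, found in a share of spots like that of Ighg2c in replicate 1 (48.3%), held 53.3% and 45.4% of its UMIs in fibrotic liver and 100% in healthy liver. For Ighg2c, found in 23.3% of spots in replicate 2 and 1.73% of healthy spots, they held 62.3% and 72.5% in fibrotic and 100% in healthy liver, a share that also grows as fewer spots hold the gene. In the authors' deposited table, Moran's I, which is near 0 for a gene scattered at random and higher for one that clusters in space, was 0.121 and 0.144 for Gpnmb in the fibrotic sections and -0.003 in the healthy section. The authors' deposited table gave Hspa5 a Moran's I of 0.078 and 0.033 in fibrotic and 0.223 in healthy liver. In the authors' deposited table Oat was at 0.134 and 0.196 in fibrotic and 0.343 in healthy liver, and Mup11 at 0.006 and -0.011 in fibrotic and 0.391 in healthy liver. The levels of Gpnmb, Hspa5, Oat and Mup11 moved in the same direction as their Moran's I, and the part of level in it was not tested. Not every named gene did so. Tat was lower in both fibrotic sections, but its Moran's I was 0.166 and 0.256 in fibrotic and 0.058 in healthy liver.

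The 2 fibrotic sections differed from each other in genes other than the Y-linked ones, given here with no test. Gadd45g, a stress-induced gene, was at 20.4 CPM in replicate 1 and 248 CPM in replicate 2, with 304 CPM in the healthy section. Scara5, a ferritin receptor, was at 2.31 CPM in replicate 1 and 21.3 CPM in replicate 2, with 25.6 CPM in the healthy section. In the other direction the cytochromes Cyp2a4 (46.6 and 13.6 CPM in fibrotic, 25.4 CPM in healthy liver) and Cyp2b13 (34.1 and 0.276 CPM in fibrotic, 1.31 CPM in healthy liver), both higher in female mice, were higher in replicate 1 than in replicate 2 and the healthy section. So were the acute phase gene Saa3 (20.1 and 3.64 CPM in fibrotic, 7.84 CPM in healthy liver), the transporter Slc22a26 (108 and 26.9 CPM in fibrotic, 24.9 CPM in healthy liver) and the thioesterase Acot3 (45.8 and 13.5 CPM in fibrotic, 4.199 CPM in healthy liver). The Hk2-deleted section held Saa3 at 136 CPM, above both. Without replicate 1 the log2 difference from healthy liver was 0.11 for Slc22a26 and 1.68 for Acot3, and without replicate 2 it was 2.12 and 3.45. Rgs16, a G protein regulator, was lower in both, at 53.4 and 16.5 CPM in fibrotic and 118 CPM in healthy liver, a log2 difference of -2.83 without replicate 1 and -1.14 without replicate 2.

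How the sections were scaled set the balance of calls. The 20 most abundant genes took 29.7% and 29.6% of UMIs in the fibrotic sections and 34.9% in the healthy section, and TMM factors were 1.12 and 0.981 for the fibrotic sections and 0.833 for the healthy one. Scaling by total UMIs moved the median of all genes by 0.338 log2 and gave 1867 higher and 205 lower genes, so that 90.1% of calls were higher, against 70.6% with TMM. The medians of the vesicle, clock, nuclear receptor, growth hormone, complement, coagulation, erythroid, urea cycle, folate and methionine, lipid droplet, lipoprotein, junction and Nrf2 lists, all between -0.29 and -0.04 with TMM, then turned positive. The medians of the male-biased (-0.82), major urinary protein (-1.55) and unfolded protein response (-0.46) lists stayed negative. Counts of higher genes then came to 7 of 30 for endothelium, 5 of 19 for the growth hormone axis, 6 of 25 for complement, 8 of 28 for lipoproteins, 8 of 25 for iron and metal genes and 9 of 20 for p53 targets.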

How the data were processed

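Gene expression was measured on mouse liver sections with spot-based spatial transcriptomics on fixed tissue. Space Ranger 2.0.0 made the deposited matrices of whole-number counts of UMIs per gene and spot, per the file headers, and the mm10 build is named in the submitters' processing notes. A second deposited file gives a Moran's I score and UMI counts per gene by the authors, and its UMI counts equalled those of the matrices for all genes listed. The probe set is not stated in the labels or headers. Only spots over tissue were used, and each section gave 1 total for each of the 19465 genes in the matrices.

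The main test was edgeR 4.0.16 (R 4.3.3), quasi-likelihood, with TMM factors and edgeR's filter on low counts, over all 4 sections in 3 groups with 1 residual degree of freedom. Adjusted p-values are Benjamini-Hochberg over all 14125 genes tested. Standard errors are the absolute log2 fold change over the square root of F. Fold changes for 1 section at a time used a prior count of 0.125. The method was run on simulated counts in which equal numbers of genes were raised and lowered. There the healthy section varied like the others by design, so the simulation could not test that assumption. Each section is 1 animal, and p-values rest on the spread between the 2 fibrotic animals. Alternatives were total-UMI scaling, RLE factors, no filter, other sets of sections, removal of mesothelial-marker spots, equal weight per spot, leaving out each fibrotic section, and DESeq2 1.42.0. Equal weight per spot was not an edgeR fit. It used limma 3.58.1 on the log2 of each section's mean CPM over spots plus 0.5.

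The comparison and the 49 gene lists were chosen with earlier results of these data known. Genes were named by rule: the 10 largest increases and decreases with a mean of at least 10 CPM, the 8 largest gains and losses in CPM, up to 4 called members per list by size of change (2 by level where none was called), 6 genes each way between the fibrotic sections, and whole Mup, clock and Y-linked families and tissue checks. Members called against the direction of their list, and Msln and Upk3b, were named after their values were seen. Some genes that the rule selects are not reported here. None of 32 ribosomal protein genes was in the matrices. Gene coordinates and promoter windows are from RefSeq (GRCm38.p6), and 208 of 208 named genes matched.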

Additional observations from a re-analysis of the deposited data

How the results depend on the processing

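With DESeq2, 729 genes were higher and 295 lower, of which 721 and 240 were shared with edgeR's calls. Fewer genes were lower under scalings that do not correct for composition, 205 with total UMIs and 230 with equal weight per spot. The numbers of higher and lower genes stayed within 1.5 times the main counts with RLE factors, no filter on low counts, the healthy and fibrotic sections only, fibrotic replicate 2 with the Hk2-deleted section, all 3 CCl4-treated sections, and without mesothelial-marker spots. Of 208 named genes, 174 were called in the main comparison. Called or not, 203 of the 208 kept their status under RLE factors, 204 with the healthy and fibrotic sections only, 191 without mesothelial-marker spots, 176 with total UMIs, 167 with fibrotic replicate 1 replaced by the Hk2-deleted section and 154 with DESeq2. A change of sign counted as a reversal only if the gene was called in either comparison. The sole reversal was Cyp2a4, at 0.25 log2 in the main comparison and -0.94 with replicate 1 replaced. It was not called in the main comparison and was called lower with replicate 1 replaced, and the cause was not tested. No paired analysis was possible because the label of the healthy section gives no replicate number, so its number here follows accession order and pairs no samples. Leaving out either fibrotic section left no residual degrees of freedom, so those fold changes have no test. With 1 healthy mouse, the spread among healthy livers was not measured, and genes with few healthy UMIs have only a bound or a wide interval.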
